A study of Mus musculus with 9 samples.

Results

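The phagocyte NADPH oxidase is described here through 7 genes: Cybb, Cyba, Ncf1, Ncf4, Rac2, Nox4 and Hvcn1. They are 7 of 52550 genes in the count table, and all 7 were among the 18699 genes with enough reads to be tested. Gene expression was measured by RNA sequencing of mouse spinal cord 7 days after surgery in 9 adult female C57BL/6N mice, 3 per group. Sham mice had the vertebral lamina removed and the cord left intact. SCI mice (spinal cord injury) received an impactor contusion of the thoracic cord and then intraperitoneal injections of the solvent dimethyl sulfoxide. SCI+FIPI mice received the same contusion and daily intraperitoneal FIPI, a small molecule that inhibits phospholipase D, dissolved in dimethyl sulfoxide. No injection is described for the Sham mice and no group was given FIPI without injury, so injury and solvent injection cannot be told apart in a comparison with Sham. Each library was taken as 1 mouse, and the p-values measure the spread between these libraries.

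The phagocyte oxidase, also called NOX2, moves electrons from NADPH across a membrane to oxygen and so makes superoxide, the first of the oxidants with which neutrophils, macrophages and microglia attack microbes. Its electron path is a membrane pair, the catalytic subunit gp91phox encoded by Cybb and its partner p22phox encoded by Cyba, and this pair is idle until cytosolic subunits, among them p47phox (Ncf1) and p40phox (Ncf4), and a Rac GTPase join it. In injured nervous tissue the enzyme is best known as a source of superoxide in microglia and in macrophages that enter from blood. Rac2 is the Rac GTPase found mainly in blood cells, Hvcn1 encodes the voltage-gated proton channel that lets out the protons left behind by the electron flow, and Nox4 encodes a homolog of gp91phox that also pairs with p22phox, needs none of the cytosolic subunits and is found mainly outside phagocytes, in vessel, kidney and connective tissue cells.

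The genes lie apart in the genome (GRCm38, GENCODE M21). Cybb (ENSMUSG00000015340) spans chrX:9435252-9487771 on the minus strand and Cyba (ENSMUSG00000006519) spans chr8:122424776-122432930 on the minus strand. Ncf1 (ENSMUSG00000015950) lies at chr5:134220053-134229625, minus strand, and Hvcn1 (ENSMUSG00000064267) at chr5:122206804-122242297, plus strand. Chromosome 15 holds both Ncf4 (ENSMUSG00000071715), at chr15:78244801-78262580 on the plus strand, and Rac2 (ENSMUSG00000033220), at chr15:78559167-78572783 on the minus strand. Nox4 (ENSMUSG00000030562) lies at chr7:87246096-87398710 on the plus strand. Cybb and Nox4 encode proteins of 570 and 592 residues that were identical at 40.5% of 531 aligned positions. Every other pair of the 7 proteins was identical at 18.2% to 28.9% of aligned positions.

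Promoter sequences of 4 of the 7 genes, the 250 bases before the start site, were found in a RefSeq table (GRCm38.p6): Cybb, Cyba, Ncf1 and Nox4. Ncf4, Rac2 and Hvcn1 had no entry. The promoters of 3 subunits of the phagocyte enzyme are shown 5′ to 3′ on the strand of the gene, from chrX:9469325-9469574 for Cybb, chr8:122432941-122433190 for Cyba and chr5:134229626-134229875 for Ncf1. The Cybb window lies inside the longer GENCODE span of that gene. Capitals mark matches to the motifs described after them.
Cybb: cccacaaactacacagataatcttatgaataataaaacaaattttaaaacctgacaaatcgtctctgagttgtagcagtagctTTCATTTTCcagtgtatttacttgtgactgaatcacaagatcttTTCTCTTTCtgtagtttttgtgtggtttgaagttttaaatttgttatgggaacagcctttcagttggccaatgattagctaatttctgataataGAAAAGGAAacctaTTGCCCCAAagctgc
Cyba: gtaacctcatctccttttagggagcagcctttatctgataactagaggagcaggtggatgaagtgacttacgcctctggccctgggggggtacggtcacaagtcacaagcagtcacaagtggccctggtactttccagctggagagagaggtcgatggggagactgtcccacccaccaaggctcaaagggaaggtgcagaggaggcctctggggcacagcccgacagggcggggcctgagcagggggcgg
Ncf1: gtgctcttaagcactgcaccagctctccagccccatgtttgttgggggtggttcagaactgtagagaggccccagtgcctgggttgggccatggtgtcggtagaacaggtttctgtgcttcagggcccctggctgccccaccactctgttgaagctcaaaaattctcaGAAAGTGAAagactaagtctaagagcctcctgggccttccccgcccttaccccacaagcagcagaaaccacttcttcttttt
Matches were searched on both strands for 3 motifs of factors known to drive phagocyte genes. The interferon regulatory factor motif GAAANNGAA, where N is any base, occurred 3 times in the Cybb promoter, at positions -167 to -159, -123 to -115 and -29 to -21 from the start, and the first 2 lie on the opposite strand. Ncf1 held it once, at -82 to -74, and it is present in 7.13% of 32851 promoters of the same length. TTGCNNCAA, a C/EBP motif, occurred once in Cybb, at -15 to -7, and is present in 1.74% of promoters. The motif GAGGAA of the factor PU.1, found in 23.3% of promoters, was in none of the 4 promoters. No matches overlapped one another. A match describes the letters in this window and shows no binding.

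Read totals per mouse ranged from 20806000 to 24582377. Levels are given in CPM, read counts scaled to a library of fixed size after TMM normalization, which compares a gene between mice. Fold changes, their standard errors (SE) and Benjamini-Hochberg adjusted p-values come from edgeR's quasi-likelihood test on all 9 mice, and a gene was called changed when its log2 fold change was at least 0.5 in size with an adjusted p under 0.05. With 3 mice against 3, an exact permutation test of one gene cannot give a two-sided p below 0.1. In bulk tissue, fewer cells of a type and less RNA per cell cannot be told apart.

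All 7 genes were higher in SCI than in Sham, with no overlap between the groups, as were 35.6% of all tested genes. All 7 were called higher, against 24.4% of all tested genes. The median log2 fold change was 2.98 over the 7 genes and 0.00 over all genes tested. Cyba rose most and Nox4 least.

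By the estimated log2 fold change in SCI against Sham, the membrane pair came first. Cybb could not be ranked above Rac2, because the confidence interval of Cybb (2.50 to 4.05) contained that of Rac2 (2.73 to 3.66). Cyba stood at 18.3, 19.7 and 12.8 CPM in the 3 Sham mice, at 218.8, 225.8 and 256.9 CPM in the SCI mice and at 190.1, 158.6 and 169.6 CPM in the SCI+FIPI mice. SCI exceeded Sham 13.8-fold (log2 fold change 3.79, SE 0.150, adjusted p = 1.09e-08, edgeR). Cybb measured 10.01, 19.1 and 7.27 CPM in Sham, 102.2, 130.4 and 119.6 CPM in SCI and 93.5, 79.6 and 89.3 CPM in SCI+FIPI. One Sham mouse, number 2, had more Cybb than the other two Sham mice, and the SE of the Cybb fold change was the largest of the 7 (log2 fold change 3.27, SE 0.323, adjusted p = 9.50e-05, edgeR). Leaving out that mouse gave a log2 fold change of 3.77.

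The cytosolic subunits, which carry the activating signal to the membrane pair, rose with it. Ncf1, the organizer subunit that is phosphorylated on activation, was at 12.9, 13.7 and 9.28 CPM in Sham, at 73.5, 85.0 and 84.4 CPM in SCI and at 65.8, 57.9 and 67.0 CPM in SCI+FIPI. Its log2 fold change in SCI against Sham was 2.76 (SE 0.126, adjusted p = 3.64e-09, edgeR). Ncf4, the subunit that binds phagosome lipids, was at 2.87, 4.23 and 1.92 CPM in Sham, 20.2, 26.2 and 24.7 CPM in SCI and 20.5, 18.01 and 18.8 CPM in SCI+FIPI. It was 7.87-fold higher in SCI than in Sham (log2 fold change 2.98, SE 0.208, adjusted p = 1.90e-07, edgeR). Ncf1 overlaps 408 exonic bases of Gtf2ird2 on the other strand, 11.1% of its exonic length, and Gtf2ird2 kept to 361 to 444 counts over the 9 mice.

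Rac2 was at 7.71, 11.8 and 6.52 CPM in Sham, 68.4, 82.0 and 88.8 CPM in SCI and 61.6, 55.3 and 63.6 CPM in SCI+FIPI. Its estimated rise of 3.20 on the log2 scale (SE 0.201, adjusted p = 1.33e-06, edgeR) lay between those of Cybb and Ncf4. The confidence intervals of Cybb, Rac2 and Ncf4 overlapped. Hvcn1, the proton channel, was at 3.16, 1.60 and 1.76 CPM in Sham, 11.5, 13.7 and 15.1 CPM in SCI and 12.4, 10.5 and 11.1 CPM in SCI+FIPI. It was 6.24-fold higher in SCI than in Sham (log2 fold change 2.64, SE 0.206, adjusted p = 8.16e-08, edgeR). Of the exonic length of Hvcn1, 1574 bases (44.2%) overlap Tctn1 on the other strand, and the strand setting of the counting is not given in the sources used here. Tctn1 held 412 to 486 counts in every mouse, so the Hvcn1 counts are uncertain by reads the pair may share, most of all in Sham, where Hvcn1 had 37 to 66 counts.

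Nox4 was the smallest riser and the rarest transcript. Its 22, 54 and 43 counts in the Sham mice gave 1.05, 2.33 and 1.80 CPM. The SCI mice had 3.48, 5.21 and 4.01 CPM, and the SCI+FIPI mice had 3.44, 4.41 and 4.28 CPM. SCI was 2.43-fold higher than Sham (log2 fold change 1.28, SE 0.252, adjusted p = 0.000392, edgeR), and its confidence interval of 0.74 to 1.82 lay wholly below those of the other 6 genes, the lowest of which began at 2.20.

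**Figure D1:**
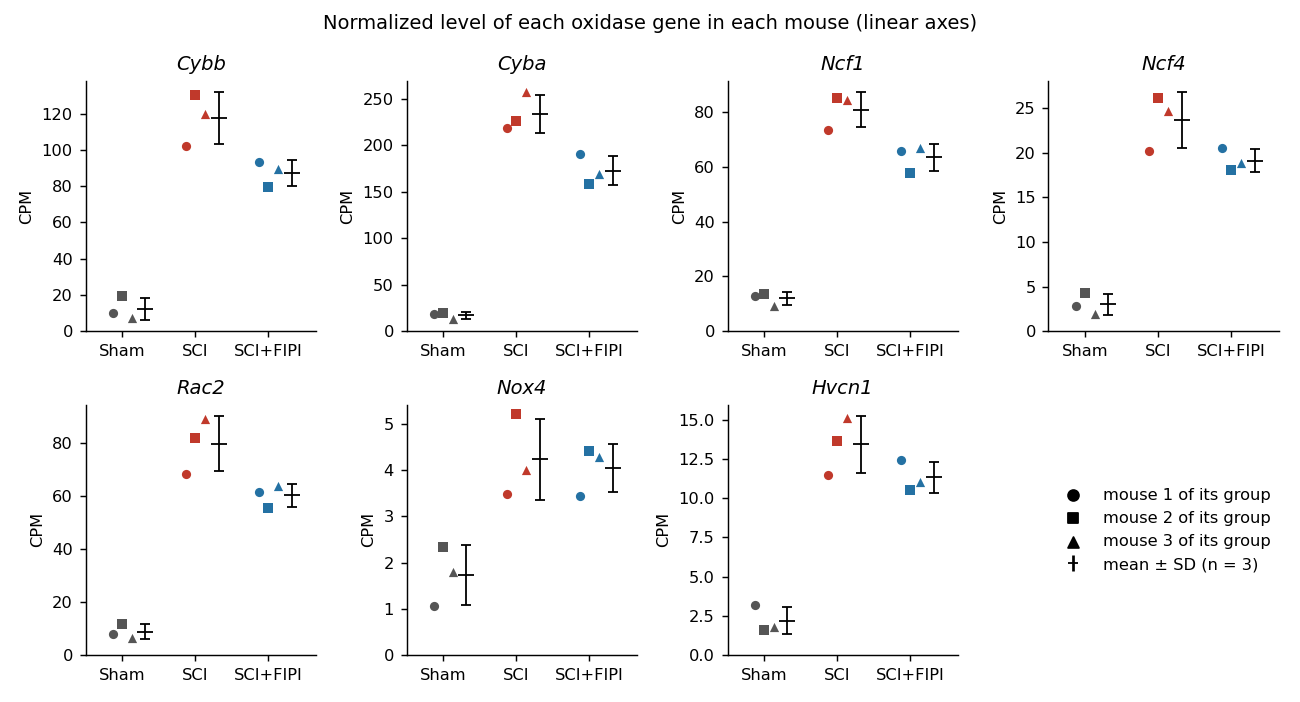
Level of each gene in CPM (linear axis from 0) in each Sham, SCI and SCI+FIPI mouse, with mouse 1 a circle, mouse 2 a square and mouse 3 a triangle, and the mean ± SD of 3 mice to the right of each group. All SCI and SCI+FIPI mice lie above all Sham mice in each panel, as they do for 35.6% (SCI) and 33.4% (SCI+FIPI) of all tested genes. SCI mouse 1 is the lowest SCI mouse in 7 of 7 panels.

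Against Sham, SCI+FIPI mice were also higher for all 7 genes without overlap, as were 33.4% of all tested genes. All 7 were called higher there, against 21.2% of all tested genes. The log2 fold changes were 3.35 for Cyba, 2.85 for Cybb, 2.79 for Rac2, 2.67 for Ncf4, 2.41 for Ncf1, 2.40 for Hvcn1 and 1.22 for Nox4. This comparison uses the same Sham mice as SCI against Sham, so the 2 series of values are not independent.

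FIPI treatment of injured mice was accompanied by lower mean levels of all 7 genes, although Nox4 turned to 0.11 on the log2 scale without SCI mouse 2, and none of the 7 was called lower, with 0.695% of all tested genes called lower by both limits (130 genes, and with 1 mouse left out from 23, when it was SCI+FIPI mouse 2, to 257, when it was SCI mouse 1). Without adjustment, edgeR gave p under 0.05 for 3 of the 7, all lower in SCI+FIPI (Cyba, Ncf1 and Rac2), against 11.5% of all tested genes. The SCI+FIPI and SCI mice did not overlap for 4 of the 7 (Cybb, Cyba, Ncf1 and Rac2), against 14.5% of all tested genes that were lower with no overlap. DESeq2 and limma-voom likewise called none of the 7 by both limits.

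Cyba came nearest to a call. The SCI+FIPI mean was 172.8 ± 16.0 CPM (SD, n = 3) and the SCI mean 233.8 ± 20.3 CPM (SD, n = 3), a ratio of 0.739. Its log2 fold change of -0.44 had a 95% confidence interval of -0.72 to -0.15 and an adjusted p of 0.0629 (edgeR). Ncf1 followed at -0.35 (interval -0.59 to -0.11, adjusted p = 0.0705, edgeR). Rac2 was at -0.41 (interval -0.80 to -0.01, adjusted p = 0.186, edgeR), and its SCI+FIPI mean of 60.2 ± 4.34 CPM compared with 79.7 ± 10.4 CPM in SCI (SD, n = 3). Cybb, at -0.42, had the widest interval, -1.09 to 0.24 (adjusted p = 0.405, edgeR), although its 3 SCI+FIPI mice, at 93.5 CPM or less, were all below the lowest SCI mouse at 102.2 CPM. The remaining 3 genes overlapped between the groups. Ncf4 was at -0.31 (interval -0.69 to 0.07), Hvcn1 at -0.25 (interval -0.62 to 0.13) and Nox4 at -0.07 (interval -0.56 to 0.43), with adjusted p of 0.301, 0.415 and 0.898 (edgeR). The intervals of Cybb, Ncf4, Hvcn1 and Nox4 hold both 0 and -0.5, so neither a difference of the size of the call limit nor its absence was shown.

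The SE of these values differed between fits. Fitted on the 6 injured mice alone, it was 0.0927 for Cybb and 0.0815 for Cyba, against 0.278 and 0.128 with all 9 mice. In that fit adjusted p (edgeR) was 0.0154 for Cyba, 0.0257 for Ncf1, 0.0262 for Cybb and 0.0311 for Rac2, with log2 fold changes of -0.43, -0.34, -0.42 and -0.40. None of these reaches the limit of 0.5 on the fold change. Without Sham mouse 2, adjusted p was under 0.05 for Cyba (0.0427), Cybb (0.0415) and Rac2 (0.0239), by edgeR. With all 9 mice, 3.58% of all tested genes were lower with an adjusted p under 0.05. This share was not counted in the other fits.

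**Figure D2:**
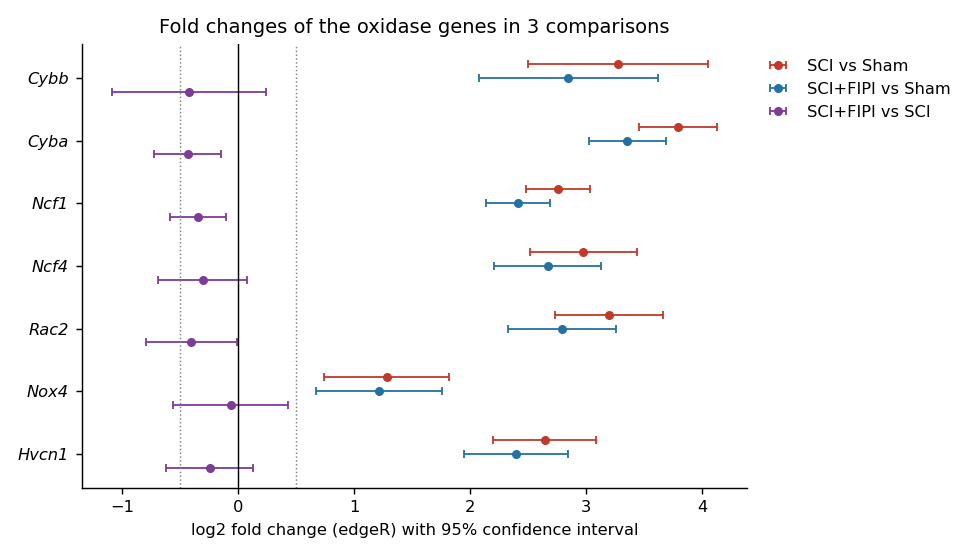
Log2 fold change (points) with 95% confidence interval (bars) from edgeR for the 7 genes in 3 comparisons, where dotted lines mark the limit of 0.5 in either direction. SCI and SCI+FIPI lie above Sham for every gene, and the values of SCI+FIPI against SCI lie between -0.44 and -0.07, short of the dotted line.

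Individual mice kept their rank over most of the genes. Within Sham, mouse 2 was highest for 6 of 7 genes (all but Hvcn1) and mouse 3 lowest for 5 of 7. Sham mouse 2 also had the highest summed monocyte and macrophage (625 CPM), fibroblast (939 CPM) and neutrophil (71.1 CPM) markers of its group and the lowest neuron markers (5835 CPM). Of the Sham mean of the monocyte and macrophage sum, 511 CPM, the marker Fn1 alone made up 369 CPM. Within SCI, mouse 1 was lowest for 7 of 7. Within SCI+FIPI, mouse 2 was lowest for 6 of 7 (all but Nox4). The summed level of 10 leukocyte markers (Ptprc, Itgam, Csf1r, Aif1, Cd68, Adgre1, Tyrobp, Fcer1g, Laptm5 and Coro1a) was also lowest in these injured mice, at 2355 CPM in SCI mouse 1 against 2524 and 2813 CPM in the other two, and at 1812 CPM in SCI+FIPI mouse 2 against 1967 and 2172 CPM. Summed neuron markers were highest in the same mice, at 2510 CPM in SCI mouse 1 and 3456 CPM in SCI+FIPI mouse 2. Other sums kept this order only in part. SCI mouse 1 had the lowest microglia (433 CPM) and fibroblast (8816 CPM) sums of its group but the highest neutrophil sum (47.6 CPM). The monocyte and macrophage sum was lowest in SCI mouse 2 (6308.3 CPM, against 6456.5 CPM in SCI mouse 1). SCI+FIPI mouse 2 had the lowest monocyte and macrophage sum (4746 CPM) but the highest microglia (412 CPM), fibroblast (10474 CPM) and neutrophil (96.9 CPM) sums. In Sham the leukocyte sum was highest in mouse 1 (443 CPM), with 432 CPM in mouse 2 and 332 CPM in mouse 3. The part of tissue composition in the differences between mice was not tested.

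Levels per exonic length, in FPKM (counts per kilobase of exon, scaled to the library total without TMM), allow the genes to be ranked within a group. Cyba was highest in every group, at 16.4 ± 3.67 FPKM in Sham, 222.1 ± 19.5 in SCI and 166.8 ± 15.2 in SCI+FIPI (SD, n = 3), apart from the next gene in each. Rac2, Ncf1 and Cybb formed the middle, at 25.4, 21.8 and 19.9 FPKM in SCI and 19.5, 17.4 and 15.1 FPKM in SCI+FIPI, and neighbours among them overlapped. Ncf4 followed at 11.6 FPKM in SCI, separate from Cybb above it, whereas in Sham the ranges of Cybb (2.11 FPKM) and Ncf4 (1.51 FPKM) overlapped. Hvcn1, at 3.72 FPKM in SCI, and Nox4, at 0.493 FPKM, were lowest, and both were separate from their neighbours in all 3 groups. The order of SCI and SCI+FIPI was the same, and in Sham Ncf1 stood before Rac2 with overlapping ranges.

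**Figure D3:**
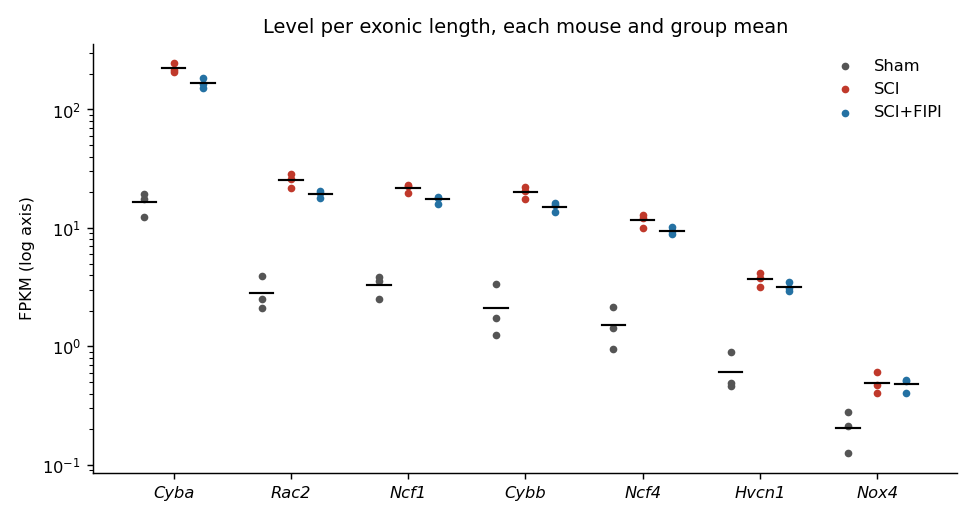
Level per exonic length in FPKM (log axis) for each gene, ordered by the SCI mean, with a point for each mouse and a line at the mean of each group. Cyba lies above the other genes in all 3 groups and Nox4 below them, at 0.206 FPKM in Sham and 0.493 FPKM in SCI.

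Ratios within a mouse show how the subunits moved relative to each other, independent of scaling between libraries. The log2 ratio of Nox4 to Cybb was -3.15, -2.99 and -1.97 in the Sham mice, -4.84, -4.62 and -4.87 in the SCI mice and -4.73, -4.15 and -4.36 in the SCI+FIPI mice. SCI was lower than Sham without overlap (mean difference -2.08 log2 units, exact two-sided permutation p = 0.1, the smallest possible; 0.36 after adjustment over 18 such tests). Ncf4 relative to Cybb was also lower in SCI than in Sham without overlap (mean difference -0.37 log2 units, exact permutation p = 0.1). Cyba to Cybb, the 2 chains of the membrane pair, had log2 ratios of 0.86, 0.04 and 0.81 in Sham, 1.10, 0.79 and 1.10 in SCI and 1.02, 0.99 and 0.92 in SCI+FIPI. Those of Sham and SCI overlapped through SCI mouse 2. In SCI+FIPI against SCI the mean ratios to Cybb differed by -0.02 (Cyba) to 0.37 (Nox4), and only Ncf4 was separate, higher by 0.12 (exact permutation p = 0.1, adjusted 0.36). Sham mouse 2 decided some overlaps: without it the ratios of Ncf1 (-0.89), Rac2 (-0.29) and Hvcn1 (-1.30) to Cybb were also lower in SCI than in Sham without overlap.

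The summed level of the 10 leukocyte markers was 332 to 443 CPM in Sham, 2355 to 2813 CPM in SCI and 1812 to 2172 CPM in SCI+FIPI. All 10 were called higher in SCI than in Sham, against 24.4% of all tested genes, with a median log2 fold change of 2.52. None was called in SCI+FIPI against SCI by edgeR, apart from 1 without SCI mouse 1 and 1 without SCI+FIPI mouse 1, and all 10 had negative log2 fold changes with a median of -0.39, beside a median of -0.35 for the 7 oxidase genes. By edgeR 6 of the 10 had an unadjusted p under 0.05 and 2 (Coro1a and Laptm5) an adjusted p under 0.05. Over all tested genes these shares were 25.2% and 9.63%, both directions together. An adjusted p under 0.05 was given to 5 by DESeq2, 4 by limma-voom and 6 by edgeR with no filter. Relative to the leukocyte sum, Cyba was higher in SCI than in Sham by 1.12 log2 units and Rac2 by 0.54, both without overlap. Nox4 was lower without overlap (difference -1.38). The ratios of Cybb, Ncf1, Ncf4 and Hvcn1 differed by 0.70, 0.09, 0.32 and -0.04, and their groups overlapped. Without Sham mouse 2 these differences were 1.02, 0.14, 0.54 and -0.28, each without overlap. Between SCI+FIPI and SCI the ratios differed by -0.07 (Cyba) to 0.32 (Nox4). Cyba was lower (-0.07) and Hvcn1 higher (0.13) without overlap, and no ratio of the 21 tested reached an adjusted p below 0.263 (exact permutation test). These values lean on the marker chosen: Cd68, the most abundant marker in the injured mice, rose by 4.55 on the log2 scale, and without it the SCI and Sham ratios differed by 1.47 for Cyba, 1.04 for Cybb, 0.89 for Rac2, 0.66 for Ncf4 and 0.43 for Ncf1, all without overlap, while those of Nox4 (-1.04) overlapped. Without Cd68, Cyba (-0.11) stayed lower in SCI+FIPI than in SCI without overlap, and the ratios of Hvcn1 (0.09) overlapped.

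**Figure D4:**
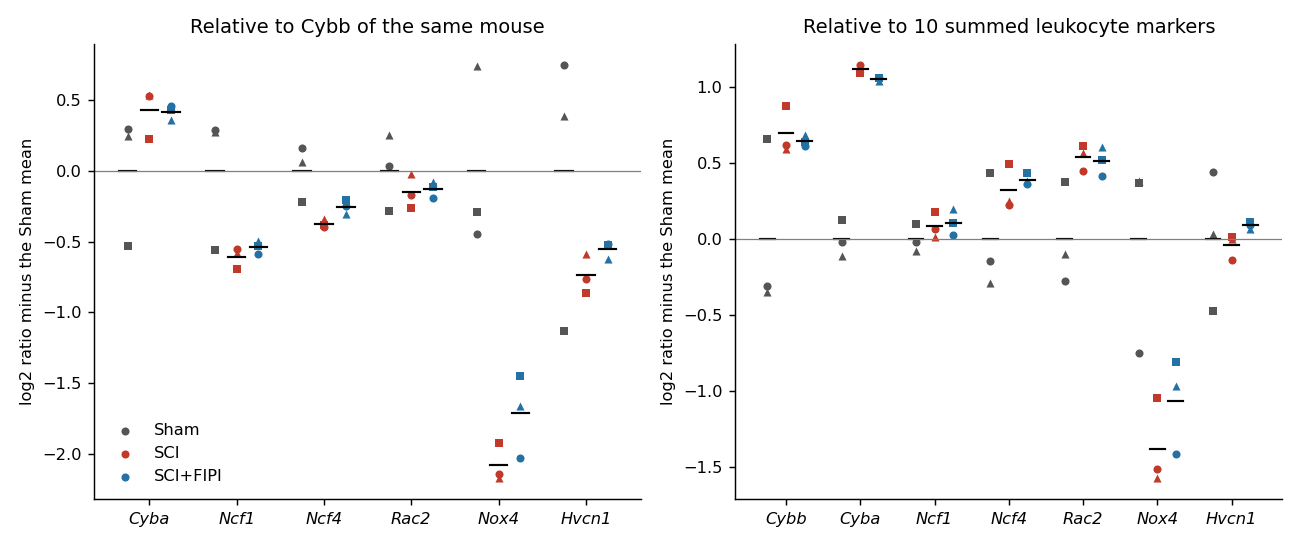
Log2 ratio of each gene to Cybb (left) and to the sum of 10 leukocyte markers (right) in every mouse, each minus the Sham mean of that ratio, with lines at the group means and the markers of the mice as in the plot of CPM. Nox4 lies at -2.08 in SCI on the left and -1.38 on the right, while Cyba lies at 1.12 on the right.

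Markers of other cell types moved with these groups as well. For the calls below, 24.4% of all tested genes were called higher and 22.5% lower in SCI than in Sham. Monocyte and macrophage markers (Ccr2, Ly6c2, Lyz2, Ms4a7, Fn1 and Chil3) summed to 326 to 625 CPM in Sham, 6308 to 7844 CPM in SCI and 4746 to 5839 CPM in SCI+FIPI. In SCI 5 of 6 were called higher than in Sham. Fn1 and Lyz2 carried the sum, at 369 and 129 CPM on average in Sham and 2253 and 4529 CPM in SCI. Of the others, Chil3 averaged most in Sham (4.84 CPM) and Ms4a7 most in SCI (59.3 CPM). Microglia markers summed to 183 to 215, 433 to 466 and 396 to 412 CPM, with 3 of 6 called higher (Tmem119, Gpr34 and Olfml3). P2ry12 and Sall1 were at log2 fold changes of 0.04 and 0.08. Siglech went the other way, at -0.57 (adjusted p = 0.0652, edgeR). It was called with no filter, without Sham mouse 3, by DESeq2 and by limma-voom. The rise of the sum was carried by Olfml3 (43.4 CPM on average in Sham and 214 in SCI) and Tmem119 (26.7 and 93.0 CPM). Neutrophil markers, from the cells richest in this oxidase, summed to only 25.2 to 71.1 CPM in Sham, 42.4 to 47.6 in SCI and 20.2 to 96.9 in SCI+FIPI, with 1 of 8 (Mmp8) called higher in SCI. Fibroblast markers, from connective tissue, summed to 350 to 939, 8816 to 11862 and 8146 to 10474 CPM. Endothelial markers summed to 238 to 264, 408 to 438 and 318 to 395 CPM. Pecam1, Cldn5 and Cdh5 were called higher in SCI than in Sham, while Tek was at 0.19 and Flt1 at -0.29 (adjusted p = 0.000829, edgeR). Astrocyte markers summed to 7705 to 8086 CPM in Sham and 11776 to 13562 CPM in SCI, a sum carried by Gfap (4136 and 9620 CPM on average) while Slc1a2 was called lower. Oligodendrocyte markers summed to 28763 to 30258 CPM in Sham and 20772 to 23216 CPM in SCI, with 2 of 5 called lower. B cell markers summed to at most 10.7 CPM and T cell markers to at most 5.74 CPM in any mouse. No marker was at 0 in every mouse. The neuron markers check for nervous tissue. They summed to 5835 to 6604 CPM in Sham, 1743 to 2510 CPM in SCI and 2895 to 3456 CPM in SCI+FIPI. In SCI+FIPI 5 of 6 were called higher than in SCI, against 2.36% of all tested genes. With 1 mouse left out, 1 (without SCI mouse 3) to 5 of the 6 were called. The part of these shifts in the values of the oxidase genes was not tested.

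A list of 23 regulators and partners of the oxidase gave 12 genes called higher, 2 called lower and 9 not called in SCI against Sham, where 24.4% of all tested genes were called higher and 22.5% lower. The median of their log2 fold changes was 0.51. The genes that rose by more than 2 log2 units were Dock2 (2.73) and Vav1 (2.71), exchange factors that load Rac, Arhgdib (2.41), which holds Rac in the cytosol, and Pik3cg (2.21), a lipid kinase of leukocytes. Prkcd (1.76) and Irak4 (1.73), kinases that act on p47phox, rose too. Pak1 (-1.23) and Prkcb (-0.89), kinases also abundant in neurons, fell. Rac1, the widely expressed relative of Rac2, rose by 0.39 (adjusted p = 9.29e-05, edgeR) and missed only the limit on the fold change. Cybc1, the chaperone that the membrane pair needs to mature, rose by 0.60. S100a8 and S100a9, neutrophil proteins that carry arachidonic acid to the oxidase, were at 0.26 and -0.05 and were not called.

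None of the 23 was called in SCI+FIPI against SCI by edgeR, where 14 had an unadjusted p under 0.05 and 5 an adjusted p under 0.05. Over all tested genes these shares were 25.2% and 9.63%, both directions together. DESeq2 and limma-voom each called 1 of the 23, Vav1, which edgeR put at -0.51 with an adjusted p of 0.0558. Vav1 was also called by edgeR with no filter, with only the 6 injured mice, without Sham mouse 3 and without SCI mouse 1, where Arhgdib was called too. Prkcd, at -0.42 (adjusted p = 0.0188, edgeR), and Irak4, at -0.37 (adjusted p = 0.0394, edgeR), missed the limit on the fold change, and so did Pak1, at 0.36 (adjusted p = 0.00956, edgeR), Prkcb, at 0.25, and Pak2, at -0.24. Against Sham, SCI+FIPI gave 9 of the 23 called higher and 2 lower, beside 21.2% and 17.0% of all tested genes.

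**Figure D5:**
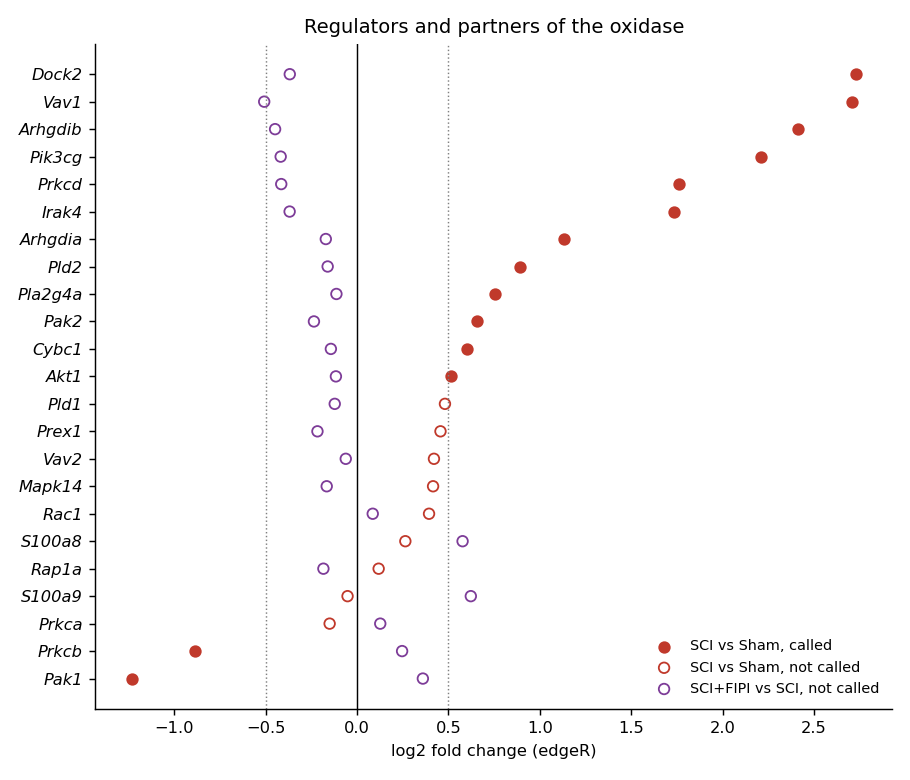
Log2 fold change (edgeR) of 23 regulators and partners of the oxidase in SCI against Sham (red) and in SCI+FIPI against SCI (purple), filled where the gene passed both limits and open where it did not, with dotted lines at the limit of 0.5. Filled red points number 12 above 0 and 2 below, and all purple points are open.

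Transcription factors known to act on phagocyte oxidase genes, as activators or repressors, were examined as a list of 12. In SCI against Sham 8 were called higher and 2 lower (median log2 fold change 1.25), beside 24.4% and 22.5% of all tested genes. Spi1, which encodes the myeloid factor PU.1, rose from 12.1 ± 2.72 to 96.5 ± 8.71 CPM (SD, n = 3; log2 fold change 2.99). Cebpa rose by 3.11, Irf8 by 2.59, Cebpb by 2.58, Irf1 by 1.40 and Elf1 by 1.34. The NF-kappa B genes Nfkb1 and Rela rose by 0.98 and 0.95. Hoxa10 and Hoxa9, which repress and activate Cybb in myeloid cells and are also expressed by spinal cord neurons, fell by 0.93 and 0.73. In SCI+FIPI against SCI Spi1 alone was called, at -0.52 (adjusted p = 0.0251, edgeR), and this call did not hold when SCI mouse 2, SCI mouse 3 or any one of the 3 SCI+FIPI mice was left out. Nfkb1 was at -0.30 with an adjusted p of 0.0112 (edgeR) and missed the limit on the fold change. The same numbers, 8 higher and 2 lower, were called in SCI+FIPI against Sham, beside 21.2% and 17.0% of all tested genes.

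The rest of the NADPH oxidase family was scarce. Of 8 listed genes of other oxidases and their partners only Duox1, Noxo1 and Duoxa1 had enough reads to be tested, and Nox1, Nox3, Duox2, Noxa1 and Duoxa2 had at most 14 counts in any mouse. None of the 3 was called in SCI against Sham or in SCI+FIPI against SCI by edgeR, DESeq2 or limma-voom, and 1 had an unadjusted p under 0.05 in each comparison by edgeR. Of all tested genes, 24.4% were called higher and 22.5% lower in SCI against Sham. An unadjusted p under 0.05 came with 34.8% higher and 33.8% lower there, and with 25.2% in either direction in SCI+FIPI against SCI. With no filter edgeR called 2 of the 8 in SCI against Sham, Duox2 and Duoxa1. Duoxa1 was also called there without SCI mouse 2, and in SCI+FIPI against SCI without SCI mouse 1. In SCI+FIPI against Sham, Duoxa1, which brings a dual oxidase to the membrane, was called higher (2.58). It had only 1 to 37 counts per mouse and 0.186 CPM on average in Sham. Duox1 was called higher too (0.99), at an adjusted p of 0.0483 (edgeR) on 9 to 31 counts per mouse. Of all tested genes, 21.2% were called higher in SCI+FIPI against Sham. The call of Duoxa1 held in 18 of 18 other fits, and that of Duox1 was lost in 15 of 18, among them DESeq2, limma-voom and those without Sham mouse 2, Sham mouse 3, SCI+FIPI mouse 2, SCI+FIPI mouse 3 or any one SCI mouse.

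Genes of antioxidant defense form a list of 26. In SCI against Sham 13 were called higher, 1 lower and 12 not called (median log2 fold change 0.57). Of all tested genes, 24.4% were called higher and 22.5% lower. Hmox1, the inducible heme oxygenase, rose from 11.1 ± 2.19 to 289.5 ± 85.1 CPM (SD, n = 3; log2 fold change 4.70). Glutathione peroxidases followed, with Gpx7 at 2.79, Gpx3 at 2.60, Gpx8 at 2.04 and Gpx1 at 1.87. Peroxiredoxins Prdx4, Prdx1 and Prdx6 rose by 1.49, 1.18 and 1.12, and Sod3, the extracellular superoxide dismutase, rose by 1.04. Sod2, the mitochondrial superoxide dismutase, fell by 1.02, while the cytosolic Sod1 was at -0.11 and was not called. None of the 26 was called in SCI+FIPI against SCI by edgeR (median -0.07), 6 had an unadjusted p under 0.05 (25.2% of all tested genes), and DESeq2 and limma-voom called none. Prdx1 had a log2 fold change of -0.28 and an adjusted p of 0.0194 (edgeR) there, short of the limit on the fold change. Set against Sham, SCI+FIPI had 12 called higher and 1 lower, beside 21.2% and 17.0% of all tested genes.

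Among 9 other enzymes that make oxidants or use peroxide, 3 were called higher and 1 lower in SCI against Sham. Over all tested genes 24.4% were called higher and 22.5% lower. Xdh, xanthine dehydrogenase, rose from 12.6 ± 1.52 to 83.0 ± 9.90 CPM (SD, n = 3; log2 fold change 2.72) and Nos3, the endothelial nitric oxide synthase, rose by 1.08. Nos2, the inducible synthase, was called at 1.94 with an adjusted p of 0.0468 (edgeR), but its SD of 4.53 CPM over the SCI mice was larger than their mean of 4.46 CPM. Without SCI mouse 2 Nos2 was at 0.67 and was not called (adjusted p = 0.0620, edgeR), and its call was lost in 13 of 19 other fits, those without any one Sham or SCI+FIPI mouse included. Nos1, the neuronal synthase, fell by 1.38. Mpo, the neutrophil enzyme that turns peroxide into hypochlorous acid, was at 1.35, 0.654 and 2.54 CPM on average in Sham, SCI and SCI+FIPI and was not called. None of the 9 was called in SCI+FIPI against SCI by edgeR, DESeq2 or limma-voom, although Mpo was called without SCI+FIPI mouse 1. By edgeR 4 of the 9 had an unadjusted p under 0.05 there, against 25.2% of all tested genes. In SCI+FIPI against Sham 2 were called higher and 1 lower, beside 21.2% and 17.0% of all tested genes.

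Genes outside the 7 with the most similar profile over the 9 mice were named by the smallest root mean square difference of centred log2 CPM among 14546 genes. Cybb was nearest to Pirb (0.098), an inhibitory receptor of myeloid cells, Sprr1a (0.136) and Cd48 (0.151). Cyba was nearest to Lrrc25 (0.109), Cd84 (0.111) and Grn (0.118). Ncf1 had the closest match of all, Neurl3 (0.0761), before Nckap1l (0.0873) and Arpc1b (0.0873), both parts of complexes that build branched actin. Ncf4 was nearest to Tnfaip2 (0.0907), Myo1g (0.109) and Cd300c2 (0.150). Rac2 was nearest to Adgre1 (0.0797), which encodes the macrophage antigen F4/80, then to Lhx6 (0.116) and Ube2c (0.121). Hvcn1 was nearest to Knstrn (0.173), Abca1 (0.180) and Vim (0.184). Nox4 was nearest to Gm11249 (0.173) and to Fbln5 (0.175), an extracellular matrix gene. Between the oxidase genes the closest pair was Ncf4 and Rac2 (0.136), followed by Cybb and Rac2 (0.157), and every pair with Nox4 was at 0.720 or more, up to 1.16 for Cyba. All these differences are descriptions over 9 libraries that share the difference between injured and Sham mice.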

How the data were processed

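Spinal cord RNA was enriched for polyadenylated transcripts, copied with random primers and sequenced by Illumina. Adapter and low-quality reads were filtered out by the authors, who deposited raw read counts per gene for 9 libraries in 1 table. The submitters' processing notes name GRCm38 and R 4.2.3. The aligner, counter, annotation and strand setting are not given in the sources used here. Samples were grouped by their labels as Sham, SCI and FIPI (here SCI+FIPI), 3 mice each, and every column was used.

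From the counts, CPM were computed after TMM scaling and FPKM from the merged exon length in GENCODE M21, which held 52403 of the 52550 gene identifiers. edgeR 4.0.16 (R 4.3.3) kept 18699 genes by its group-wise filter and fitted quasi-likelihood models with 1 mean per group on all 9 mice, with robust dispersion (biological coefficient of variation 9.30% and 6 residual degrees of freedom). Limits of 0.5 on the log2 fold change and 0.05 on the Benjamini-Hochberg adjusted p follow the study, which names no test. Alternatives used DESeq2 1.42.0, limma 3.58.1 (voom) and other settings given in the closing section. Scripts were tested on simulated data. Ratios within a mouse were compared by exact two-sided permutation tests. Counts cover sampling of reads, and their precision is limited by 3 mice per group.

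Named genes are the 7 oxidase genes, all genes of the fixed lists and, for each of the 7, up to 3 other genes that average 1 or more log2 CPM and have the smallest root mean square difference of centred log2 CPM. The 7 genes and the lists were chosen with earlier results of these data known, so their counts are a description. Some named genes are not reported here.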

Additional observations from a re-analysis of the deposited data

How the results depend on the processing

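Alternatives were other scaling factors (RLE, upper-quartile), no filter or a minimum of 10 counts in every mouse, a replicate block, offsets for the GC content and length of genes (GC and length offsets), both together, only the 6 mice compared, DESeq2, limma-voom, other fold limits and each mouse left out. By both limits, 7, 0 and 7 of the 7 oxidase genes were called in SCI against Sham, SCI+FIPI against SCI and SCI+FIPI against Sham under each of these. Single genes kept their direction and, by both limits together, their call or lack of it in 133, 131 and 133 of 133 refits per comparison. In SCI+FIPI against SCI some fold changes reached the limit of 0.5 with an adjusted p above 0.05, Cyba (-0.51) without SCI+FIPI mouse 1 and Cybb (-0.51) and Rac2 (-0.50) without SCI mouse 1. Both reversals were Nox4 in SCI+FIPI against SCI, whose log2 fold change ran from -0.18 to 0.11 with 1 mouse left out and was 0.11 without SCI mouse 2 and 0.04 without SCI+FIPI mouse 1.

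By the adjusted p alone, 0 of the 7 were under 0.05 in SCI+FIPI against SCI in the fit described above, but 3 with no filter, 1 with GC and length offsets, 4 with only the 6 mice compared, 3 with DESeq2 and 3 with limma-voom. With 1 mouse left out the number ran from 0 to 3, with 3 without Sham mouse 2, 2 without Sham mouse 3 and 1 without SCI mouse 1. In the fit described above, 3.58% of all tested genes were lower with an adjusted p under 0.05, and 9.63% had one in either direction. These shares were not counted in the other fits. Spi1 lost its call in SCI+FIPI against SCI with upper-quartile factors (-0.497), with the replicate block (adjusted p = 0.0585, edgeR) and in 5 fits with 1 mouse left out. Deviations of same-numbered mice from their group means correlated at -0.07 to 0.11, and those of differently numbered mice at -0.11 to 0.09. No pairing by number was seen in these values, and a batch shared by number was not tested. With the replicate block, Cyba was at -0.44 and Cybb at -0.41 in SCI+FIPI against SCI, and the block changed no call of the 7 genes. GC and length offsets moved the median of all genes by -0.10 in SCI against Sham and changed its split of higher to lower calls from 4571 to 4209 into 3966 to 4897. Over all genes, 572 calls in SCI+FIPI against SCI became 1800 without a fold limit, 65 at a limit of 1 and 189 to 1038 with 1 mouse left out. The causes were not tested. The 3 mice per group and, for Nox4, 22 to 126 counts per mouse set the precision.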
